A study of Saccharomyces cerevisiae with 9 samples.

Results

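The ribosome footprints of wild-type budding yeast growing in rich medium were described from 3 of the 9 ribosome profiling libraries of the series. The 3 libraries were taken by their label, WT, and no comparison between strains was made. The other libraries came from strains lacking PBP1 (pbp1Δ) or both PAB1 and PBP1 (pab1Δpbp1Δ) and were not used. The WT cells were Saccharomyces cerevisiae of the W303 background (strain HFY114), grown at 30 °C in YEPD, a medium of yeast extract, peptone and glucose. The genotype that the study lists, with the double alleles of leu2 and his3 written out, is MATa ura3-1 leu2-3 leu2-112 his3-11 his3-15 trp1-1 ade2-1 can1-100, so that the cells carried marker alleles in 6 genes as well as intact PAB1 and PBP1. By the study's methods the 3 libraries were technical replicates of this 1 strain, although its results section speaks of biological replicates. The SD between libraries, given below with n = 3 throughout, is therefore not a spread between isolates.

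In ribosome profiling, nuclease removes the mRNA that ribosomes do not cover and the protected fragments are sequenced. The number of fragments on a transcript reflects the amount of that mRNA and how many ribosomes sit on it. In a culture at steady growth it is read as the allocation of the translating ribosomes. Yeast that grows on glucose ferments it to ethanol and is known for spending much of its translation on ribosomal proteins and glycolytic enzymes.

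Footprints were assigned to 6952 transcript entries: 6587 spliced or single-form entries, 343 entries named as unspliced forms, and 22 others. Library 1 summed to 4790126 expected counts, library 2 to 5110299 and library 3 to 5282755. A count of 0 allows up to 3 counts, which make between 5.68e-05% and 6.26e-05% of a library, and such limits cover counting error only. No counts fell on 907 entries in any of the 3 libraries. Both a share and a density are used below. The share of expected counts says what part of the footprints a transcript held, and grows with its length. FPKM, in which the counts are divided by transcript length and library total, is a density and is the scale on which different genes are compared. The length in the deposited FPKM was longer than the coding region by a median of 230 bases (quartiles 150 and 230, 4793 intronless entries), so FPKM understates the density of short coding regions.

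Markers of mating type fitted the listed genotype. STE2, the receptor for α-factor that MATa cells carry, had 2425, 2268 and 2422 expected counts in libraries 1, 2 and 3, and BAR1, the protease that degrades α-factor, had 2472, 2609 and 2806. All 7 a-specific genes had a mean of at least 10 counts, a mean that 5153 of all 6952 entries reached. All 13 haploid pheromone pathway genes, which do not tell the mating types apart, reached it too. They were led by GPA1, the G protein α subunit (773, 942 and 1100). Of the 4 α-specific genes none reached that mean. MF(ALPHA)1, which encodes the α-factor precursor, was at 0 in 3 of 3 libraries, and SAG1, the α-agglutinin, had 9, 5.01 and 9.01 counts. PAB1 had 4742, 5334 and 4775 counts and PBP1 had 729, 749 and 722, so the footprints of both genes were present in 3 of 3 libraries.

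Footprints were concentrated on few transcripts. The 155, 150 and 138 most occupied entries of libraries 1, 2 and 3 held 50% of the expected counts, a mean of 148 ± 8.74 entries. The 20 most occupied entries of each library held 21.4%, 22.4% and 23.7% (mean 22.5% ± 1.14), and the 5 most occupied held 9.35% ± 0.70. At the other end, 90% of the counts lay on 1649 ± 43.5 entries. On the density scale fewer entries held 50% of the library, with that part of the summed FPKM on 116 ± 4.36 entries. The top of the ranking was not more concentrated by FPKM. There the 20 most occupied entries held a mean of 21.4%, and 25% lay on 27 entries, against 25.7 by counts.

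**Figure D1:**
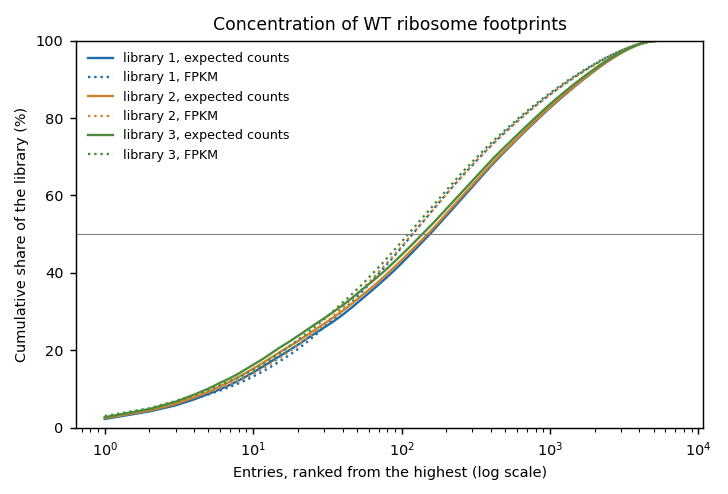
Cumulative share of each WT library (y axis, percent) against the number of entries ranked from the most occupied (x axis, log scale), for expected counts (solid lines) and FPKM (dotted lines). The solid lines cross 50% at 155, 150 and 138 entries in libraries 1, 2 and 3, and the dotted lines cross it further to the left.

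A single gene, TDH3, held the largest part in every library. TDH3 encodes the main glyceraldehyde-3-phosphate dehydrogenase and took 2.23%, 2.45% and 2.68% of the expected counts in libraries 1, 2 and 3. It was followed by 4 further enzymes of glycolysis and fermentation. ENO2 (enolase) took 2.00% ± 0.10, CDC19 (pyruvate kinase) 1.73% ± 0.17, PDC1 (pyruvate decarboxylase) 1.68% ± 0.13 and FBA1 (fructose-bisphosphate aldolase) 1.46% ± 0.05. The ranges of TDH3, ENO2 and CDC19 over the 3 libraries did not overlap with one another, while that of CDC19 (1.56% to 1.89%) overlapped with that of PDC1 (1.55% to 1.82%).

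Translation elongation supplied the next group of leading transcripts. EFT1 and EFT2, the 2 copies of elongation factor 2, held 1.42% ± 0.17 and 0.59% ± 0.05. YEF3, the fungal elongation factor 3, held 1.18% ± 0.04, and TEF1 and TEF2, the 2 copies of elongation factor 1A, held 1.15% ± 0.08 and 1.14% ± 0.05. The copies are near-identical in sequence, so the split between TEF1 and TEF2, or between EFT1 and EFT2, rests on how RSEM divided shared reads and is uncertain. Their sums are not affected.

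The remaining leading transcripts came from several processes. They included ADH1, the fermentative alcohol dehydrogenase (0.99% ± 0.09), CCW12, a mannoprotein of the cell wall (0.94% ± 0.03), PMA1, the proton pump of the plasma membrane (0.91% ± 0.06) and ACT1, actin (0.88% ± 0.07). ASC1, a scaffold protein of the small ribosomal subunit, held 0.77% ± 0.06, and RPP0, the stalk protein of the large subunit, held 0.77% ± 0.02. The 25 entries with the highest mean share also included PGK1, GPM1, TPI1 and TDH2 of glycolysis, the ribosomal protein genes RPL4A, RPS9B and RPL1A, and the chaperone genes HSC82 and SSB1. Together the 25 held 24.96% ± 1.19, and 24 of them were among the 25 highest entries of every library. Of the 24 neighbouring pairs in this order, 7 had ranges that did not overlap, so most of the order below the first ranks is within the spread.

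By density, shorter transcripts ranked higher. TDH3 stayed first, at 19834, 21741 and 23817 FPKM, and CCW12 moved up to the second place, at 17095, 16415 and 15990 FPKM. ENO2 (13950 ± 690 FPKM), FBA1 (11856 ± 379), CDC19 (9945 ± 952) and PDC1 (9250 ± 734) followed. The 10 densest entries were completed by TEF1, RPS9B, TEF2 and RPP0, between 7335 and 7595 FPKM on average. Counts were also set per kilobase of coding region, which leaves flanking sequence out of the length but not out of the counts. There CCW12 had 24297, 23311 and 22696 CPM (counts scaled to an equal library total) and TDH3 had 22362, 24502 and 26835. The ranges of these 2 genes overlapped on that scale. PMA1, EFT1 and YEF3 ranked lower by density than by share. PMA1 was 12th by share and 51st by FPKM, and YEF3 was 7th by share and 33rd by FPKM.

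The functions that took the footprints were described with 33 lists of genes that share no member, 1459 genes in all. The lists held 78.1% ± 0.51 of the expected counts. Glycolysis and ethanol fermentation was the largest, with 13.0%, 13.7% and 14.5% on 26 genes in libraries 1, 2 and 3 (mean 13.7% ± 0.77). The 81 large subunit ribosomal proteins held 10.6% ± 0.41 and the 57 small subunit ribosomal proteins 6.78% ± 0.26, which made 18.1%, 17.2% and 16.8% for both subunits (mean 17.4% ± 0.67). The 12 elongation factor genes held 6.37% ± 0.35. Of the 32 neighbouring pairs in the order of the lists, 17 had ranges over the libraries that did not overlap.

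**Figure D2:**
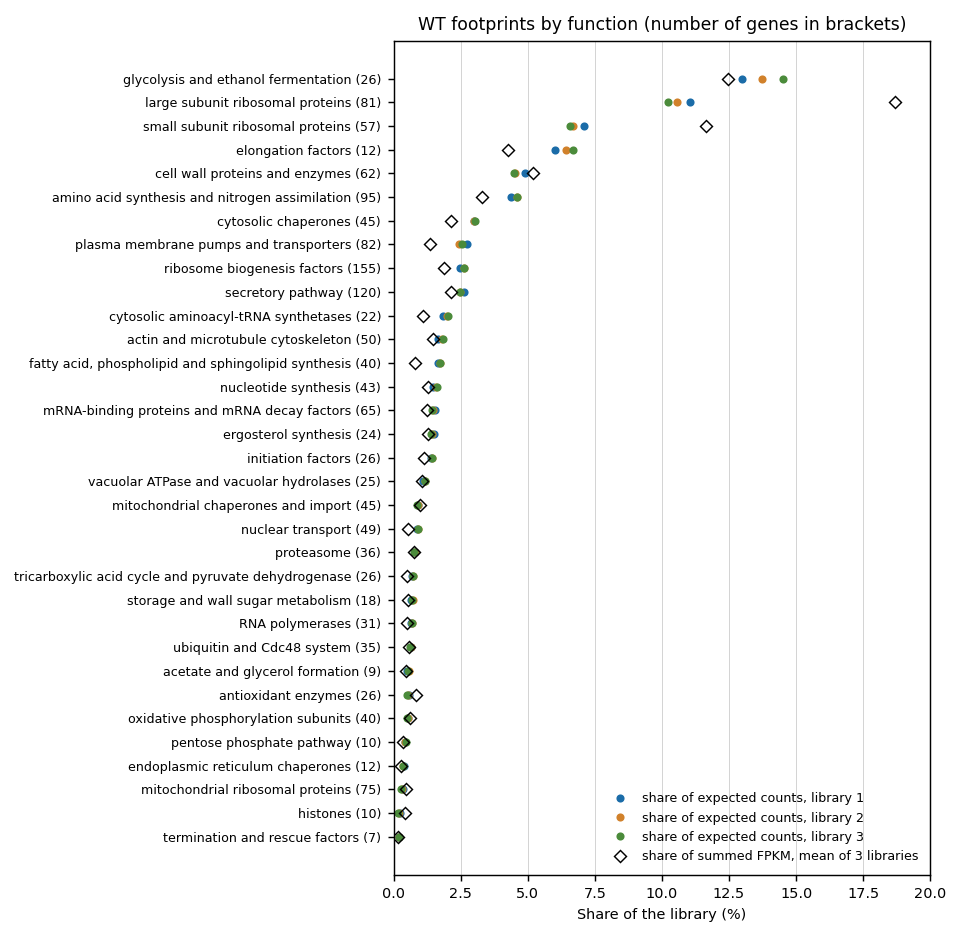
Share of the expected counts (filled circles, 1 for each WT library) and mean share of the summed FPKM (open diamonds) for the 33 function lists, as percent of the library on the x axis, with the number of genes in brackets. Glycolysis and ethanol fermentation led by counts, and the large subunit ribosomal proteins led by FPKM, at 18.7%.

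Ribosomal proteins held more than glycolytic enzymes on both scales, and the gap was wider by density. Ribosomal proteins are short, and took 17.4% of the expected counts but 30.3% ± 0.80 of the summed FPKM. Glycolysis and ethanol fermentation took 13.7% of the counts and 12.5% ± 0.92 of the FPKM. The large subunit list alone, which came after glycolysis by counts, held 18.7% ± 0.48 of the FPKM, and the small subunit list held 11.6% ± 0.33. Fatty acid, phospholipid and sphingolipid synthesis, with the very long enzymes FAS1, FAS2 and ACC1, lay at the other end, with 1.70% ± 0.05 of the counts and 0.78% ± 0.02 of the FPKM. Of the 29 lists besides these, 6 also moved by more than 1.5 times. Lower by FPKM were elongation factors (4.25%, below the 5.19% of the cell wall), plasma membrane pumps and transporters (1.35%), aminoacyl-tRNA synthetases (1.10%) and nuclear transport (0.53%). Higher by FPKM were the antioxidant enzymes (0.83%) and the histones (0.42%), whose shares of counts are given below. Over 5608 intronless entries the mean coding length was 1685 ± 29.4 bases when each footprint was counted. It was 1139 ± 27.5 bases when each entry was weighted by its counts per coding length, against 1470.6 bases with each entry counted once. These means leave out 102 ribosomal protein genes with an unspliced entry, whose spliced forms held 11.2% ± 0.47 of the counts.

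The cytosolic translation apparatus as a whole (ribosomal proteins, initiation, elongation and termination factors, and aminoacyl-tRNA synthetases, 205 genes) held 27.6%, 27.3% and 27.2% of the expected counts. The 22 cytosolic aminoacyl-tRNA synthetases, which charge tRNAs with amino acids, held 1.96% ± 0.09, led by ILS1 (isoleucine, 0.215%) and GUS1 (glutamate, 0.16%). The 26 initiation factor genes held 1.40% ± 0.01, led by TIF1, a copy of the helicase eIF4A (0.23%), and NIP1, a subunit of eIF3 (0.14%). The 7 termination and rescue factors held 0.20% ± 0.01, most of it on SUP45, the release factor eRF1, and RLI1, which splits ribosomes after termination. Elongation thus held the most footprints of the factor groups, and the ranges of these 4 groups did not overlap. The 155 listed ribosome biogenesis factors held 2.56% ± 0.08, led by NOP1 and RRP5. The 31 subunits of the RNA polymerases held 0.66% ± 0.03, led by RPA190 and RPA135 of polymerase I. Adding both lists brought the share to 30.6% ± 0.11. ARB1, an ATPase of ribosome biogenesis, was on no list, and its 0.16% is not in that share.

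Most ribosomal proteins occur in a single copy in the ribosome, the stalk proteins P1 and P2 being exceptions, and most are encoded by 2 genes whose products are nearly the same. With the copies of a protein summed, the 79 families had a median density of 2684 FPKM (quartiles 1853 and 4236). Of the 79, 59 lay within 2-fold of that median. RPS9 (8862, 8198 and 8199 FPKM) and RPP0 (7496, 7172 and 7336) were the highest, and RPL38 (522, 483 and 384) and RPL41 (293, 311 and 288) were the lowest. RPL41A and RPL41B have a coding region of only 78 bases, and the lengths behind their FPKM were 336 and 405 bases. RPL39, another very short protein, also lay low (544, 717 and 630 FPKM).

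The copies of a ribosomal protein were used unequally in many families. In 35 of the 59 families with 2 copies, the leading copy had more than 2 times the FPKM of the other in 3 of 3 libraries. RPL15A held 98.2% ± 0.10 of its family, RPS6B 95.7% ± 0.65, RPL7A 90.8% ± 0.40 and RPS9B 87.8% ± 0.39. Other pairs were near equality, such as RPL6B with 51.6% ± 0.52 of RPL6 and RPS10B with 51.8% ± 1.24 of RPS10. Coding sequences of such copies are nearly identical, so these splits depend on the reads that differ between copies, and on RSEM's division of the rest.

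Genes with an annotated unspliced form took a large part of the footprints, and most of it was on ribosomal proteins. The spliced forms of 343 such genes held 15.0% ± 0.35 of the expected counts, and 102 ribosomal protein genes among them held 11.2% ± 0.47. The 343 unspliced forms held 0.097%, 0.109% and 0.093%. Among the unspliced entries were ABP140, OAZ1 and EST3, whose coding regions are joined by a programmed ribosomal frameshift rather than by splicing. These 3 entries held 14.6%, 11.3% and 11.4% of the unspliced counts. The highest of the 343 entries was YBL005W-B unspliced, with 668, 639 and 995 counts. The entries were sorted by name alone. Which others of them, YBL005W-B included, stand for a frameshift rather than an intron was not examined. The 343 entries are therefore no measure of unspliced RNA.

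Among the remaining functions, the cell wall and amino acid synthesis came first. The 62 genes of cell wall proteins and enzymes held 4.64% ± 0.23, of which CCW12 took 20.3%, followed by SED1, a GPI-anchored wall protein (0.43%, 0.39% and 0.36% in libraries 1, 2 and 3). The 95 genes of amino acid synthesis and nitrogen assimilation held 4.52% ± 0.13, with MET6, the methionine synthase, at 0.32% ± 0.02 and ILV5, an enzyme of branched-chain amino acid synthesis, at 0.29% ± 0.01. The ranges of these 2 lists overlapped. The 45 cytosolic chaperones held 3.00% ± 0.02, led by HSC82 (Hsp90) and SSB1 (ribosome-bound Hsp70). The 82 plasma membrane pumps and transporters held 2.58% ± 0.14, and PMA1 alone made 35.5% of that list.

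A few genes likewise dominated several smaller lists. ACT1 held 49.9% of the cytoskeleton list (1.76% ± 0.09 of all counts), ahead of TUB2, β-tubulin. PSA1, which makes GDP-mannose, held 52.4% of storage and wall sugar metabolism (0.67% ± 0.04), and ALD6, the cytosolic acetaldehyde dehydrogenase, held 64.2% of acetate and glycerol formation (0.53% ± 0.02). PDI1, protein disulfide isomerase, held 57.6% of the chaperones of the endoplasmic reticulum (0.35% ± 0.02), ahead of KAR2, the Hsp70 of that compartment. Ribosome biogenesis and the secretory pathway were spread more evenly, with 4.12% of the first list on NOP1 and 4.31% of the second on CHC1, the clathrin heavy chain.

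Several other functions held between 0.2% and 1.6% of the expected counts. Nucleotide synthesis held 1.56% ± 0.09, led by URA2 (0.212%), the first enzyme of pyrimidine synthesis, and ADE6 (0.129%), of purine synthesis. Proteins that bind mRNA or take part in its decay held 1.47% ± 0.05, led by STM1 (0.186%), which binds ribosomes, and TMA19 (0.107%). Ergosterol synthesis held 1.45% ± 0.05, led by ERG13 (0.182%) and ERG25 (0.148%). The vacuolar ATPase and vacuolar hydrolases held 1.14% ± 0.04, led by the ATPase subunits VMA1 (0.209%) and VMA2 (0.117%). APE3, a vacuolar aminopeptidase, was on no list and held 0.118%. The ranges of the first 3 of these lists overlapped with their neighbours in the order.

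Nuclear transport held 0.90% ± 0.03, led by the importin KAP123 (0.131%) and NTF2 (0.0581%). Protein breakdown was split between the proteasome (0.77% ± 0.02, led by RPN1 and PUP3) and the ubiquitin and Cdc48 system (0.63% ± 0.02, led by UBA1, the activating enzyme, and UBC4, a conjugating enzyme). Antioxidant enzymes held 0.53% ± 0.04, led by the peroxiredoxins TSA1 (0.205%) and AHP1 (0.115%), and the pentose phosphate pathway held 0.43% ± 0.02, led by TKL1 (0.176%) and GND1 (0.115%). The histones, with 0.21% ± 0.04, were led by HHF2 and HTB1. The second members of lists already described were PHO84 among the transporters (0.332%), RTN1 in the secretory pathway (0.106%), ACC1 in lipid synthesis (0.314%), SEC53 in sugar metabolism (0.0541%) and GPP1 in glycerol formation (0.117%).

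The 4 lists of mitochondrial functions took a small part of the footprints. The tricarboxylic acid cycle with pyruvate dehydrogenase held 0.72% ± 0.02, led by ACO1 (aconitase) and IDP1 (isocitrate dehydrogenase). Nuclear-encoded subunits of oxidative phosphorylation held 0.53% ± 0.02, led by ATP2 and ATP1 of the ATP synthase. The 75 mitochondrial ribosomal proteins held 0.33%, 0.32% and 0.28%, led by RSM7 and RML2, and mitochondrial chaperones and import 0.90% ± 0.02, led by POR1, the porin of the outer membrane, and SSC1, the matrix Hsp70. The 4 lists together made 2.46% ± 0.06 on 186 of the 6952 entries. Mitochondrial proteins on other lists or on none, such as RIM1 (0.076%, on none), are not in that sum.

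Among proteins with several genes, 1 gene often held most of the footprint density. In 15 of 29 sets of paralogs the leading gene had over 90% of the set's summed FPKM, in 10 it had between 60% and 90%, and in 4 less than 60%. In 28 sets the same gene led in 3 of 3 libraries, and the exception was elongation factor 1A, whose copies TEF1 and TEF2 changed places. In every set, reads that match more than 1 member were divided by RSEM. Splits between members of like sequence are therefore uncertain, also where this is not repeated below.

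Glycolysis and fermentation showed the pattern plainly. TDH3 had 83.9% ± 1.18 of the FPKM of its set, with TDH2 at 4126, 4016 and 4188 FPKM and TDH1 at 67.5, 69.7 and 65.8. ENO2 had 93.6% ± 0.66, against ENO1 at 957, 999 and 876 FPKM. CDC19 had 99.7%, with PYK2 at 29.5 ± 2.52 FPKM. PDC1 had 99.9%, with PDC5 at 7.66, 11.4 and 11.4 FPKM and PDC6 under 1 FPKM in every library. ADH1 had 97.5% ± 0.18, while ADH2, the isoenzyme that oxidises ethanol, had 1.28, 1.69 and 1.70 FPKM. The mitochondrial ADH3 was second at 168 FPKM.

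Glucose uptake and phosphorylation were less one-sided. HXK2, the main hexokinase on glucose, had 79.1% ± 1.99 of the FPKM of its set, ahead of GLK1 (265 FPKM) and HXK1 (57.1 FPKM). Among 7 hexose transporters HXT3, a low-affinity transporter, led with 933, 769 and 758 FPKM, followed by HXT2 (403, 323 and 296), HXT1 (132, 126 and 126) and HXT7 (113, 111 and 93.3). HXT6 and HXT7 are almost identical in sequence, so the split between them is uncertain, and HXT6 was given 51.7, 0 and 0.06 counts.

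The same held for factors of translation, folding and membrane transport. YEF3 had 3462, 3694 and 3643 FPKM and HEF3, its paralog, 0.19, 0.30 and 0.23. HYP2, the aerobic eIF5A, had 3705, 3661 and 3438 FPKM and ANB1, its hypoxic counterpart, 6.85, 6.18 and 3.83. PMA1 had 2811, 2459 and 2606 FPKM and PMA2 0.49, 0.81 and 0.94. TIF4631 had 79.3% ± 1.00 of eIF4G, the scaffold of the cap-binding complex. HSC82, the constitutive Hsp90, had 84.2% ± 0.96, against the inducible HSP82, and SSA2 had 64.3% ± 2.24 of the SSA Hsp70 set, ahead of SSA1, with SSA3 under 1 FPKM and SSA4 at 6.91. The most even sets besides TEF1 and TEF2 were SSB1 with SSB2 (56.9% ± 4.36), HXT3 in the hexose transporters (57.4% ± 0.91), and GPD1 with GPD2, which make glycerol-3-phosphate (59.0% ± 2.38). SSB1 was given 54.4%, 54.3% and 61.9% in libraries 1, 2 and 3. The splits of the SSB, SSA and Hsp90 sets depend in part on how RSEM divided shared reads.

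The remaining sets covered metabolism and respiration. Over 90% of the set was on GPM1, phosphoglycerate mutase (99.4%, with GPM3 at 36.6 and GPM2 at 3.65 FPKM), SSE1, an Hsp110 (98.9%, with SSE2 at 10.6), GDH1, glutamate dehydrogenase (99.9%, with GDH3 at 1.38), TSA1 (99.9%, with TSA2 at 2.39) and FKS1, glucan synthase (98.4%, with GSC2 at 5.8). The same held for 3 sets of respiration. CYC1, cytochrome c, had 98.7% ± 0.59, with CYC7 at 2.25 FPKM. PET9, the ADP/ATP carrier, had 98.3% ± 0.44, with AAC3 at 10.7 and AAC1 at 0.80 FPKM, and COX5A, of cytochrome oxidase, had 95.0% ± 3.43, with COX5B at 5.14, 4.51 and 13.4 FPKM. Between 60% and 90% were EFT1 (70.4%), TIF1 of eIF4A (76.8%, with TIF2 at 528 FPKM), SAM1, S-adenosylmethionine synthetase (70.5%, with SAM2 at 452), IMD4, IMP dehydrogenase (64.03%, with IMD3 at 176 and IMD2 at 137) and HMG1, HMG-CoA reductase (74.8%, with HMG2 at 40.9). The copies of eIF4A, of S-adenosylmethionine synthetase and of IMP dehydrogenase are close in sequence, and their splits are uncertain. The minor members ADH4 and ADH5 had 6.17 and 8.38 FPKM, and HXT4 and HXT5 had 31.5 and 0.20 FPKM.

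Subunits of stable complexes are made in cells in amounts that can match their stoichiometry, and their densities were compared within 31 complexes. In 8 complexes the highest and lowest subunit lay within 2-fold of each other in 3 of 3 libraries, and in 7 they lay more than 5-fold apart on average. Of the 31 complexes 13 have only 2 subunits, and 6 of the 8 are among these. The ratio of highest to lowest tends to grow with the number of subunits, so complexes of unlike size are not compared by it on equal terms. Over all 5077 spliced or intronless entries with a mean of at least 10 counts, the quartiles of FPKM were 11.2 and 73.9.

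By the mean FPKM ratio the closest match was phosphofructokinase, which commits sugar to glycolysis and holds its 2 subunits in equal number. PFK1 had 544, 611 and 600 FPKM and PFK2 602, 656 and 610, a ratio of 1.06 ± 0.04. The nascent polypeptide-associated complex (EGD1 and EGD2), the small subunit of ribonucleotide reductase (RNR2 and RNR4) and isocitrate dehydrogenase (IDH1 and IDH2) had ratios of 1.13 ± 0.05, 1.14 ± 0.08 and 1.14 ± 0.15. The SDs of these 4 ratios overlap, and by counts per coding length the nascent polypeptide-associated complex (1.04 ± 0.03) and phosphofructokinase (1.05 ± 0.04) were alike. The 4 septins, which form the ring at the bud neck, spanned 73.8 (CDC3) to 111 FPKM (CDC12). The 3 subunits of eIF2, which brings the initiator tRNA, spanned 278 (SUI3) to 495 FPKM (SUI2).

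Some subunits stood apart from their partners. The 8 subunits of the CCT chaperonin, which folds actin and tubulin, each occur once per ring. Of these, 7 lay between 151 and 194 FPKM on average, and CCT7 lay at 83.5, 87.7 and 101 FPKM, below the other subunits in every library. In fatty acid synthase FAS1 had 572, 636 and 629 FPKM and FAS2 290, 351 and 379, a ratio of 1.81 ± 0.16. Of the release factors, SUP45 had 606, 621 and 587 FPKM and SUP35 138, 158 and 152, a ratio of 4.05 ± 0.28. In succinyl-CoA ligase LSC1 had 171, 163 and 150 FPKM and LSC2 21.1, 29.05 and 21.8, a ratio of 6.87 ± 1.25.

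The 4 widest ranges were in complexes of protein breakdown, protein transport, folding and respiration. The 14 subunits of the 20S proteasome core, each present in 2 copies per particle, spanned 69.3 FPKM (PUP1) to 657 FPKM (PUP3), with PRE6 also high at 631. In the Sec61 translocon, which carries proteins into the endoplasmic reticulum, SEC61 had 533 FPKM, SSS1 102 and SBH1 26.7. Prefoldin spanned 6.59 (YKE2) to 125 FPKM (PAC10) and the cytochrome bc1 complex 10.2 (QCR9) to 188 FPKM (RIP1). With counts per coding length in place of FPKM, the range of the Sec61 translocon was 12.5-fold, against 20.02-fold by FPKM. In the other 25 complexes that could be set on that scale the range moved by less than 1.5 times. The 20S core, prefoldin and the cytochrome bc1 complex could not be set on it, because a gene of each has an unspliced entry, and neither could the coatomer and the Arp2/3 complex.

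The remaining complexes lay between these extremes. Below 2-fold on average were the mitochondrial processing peptidase (MAS2 76.8 and MAS1 104 FPKM), the ribosome-associated complex (ZUO1 386 and SSZ1 703) and FACT, a histone chaperone (POB3 49.3 and SPT16 96.3). Between 2-fold and 3-fold were phenylalanyl-tRNA synthetase (FRS1 228 and FRS2 456 FPKM), the proteasome ATPase ring (RPT4 108 to RPT3 228), the eIF3 core (RPG1 248 to NIP1 508), the MCM2-7 replicative helicase (MCM4 26.9 to MCM7 58.7), eIF2B, the exchange factor of eIF2 (GCN3 73.8 to GCD1 173), the coatomer of Golgi vesicles (SEC26 123 to RET2 305), the Arp2/3 complex of actin patches (ARC40 107 to ARC18 266) and prohibitin (PHB1 64.5 and PHB2 191). Wider still were actin capping protein (CAP1 40.8 and CAP2 126 FPKM), the box C/D core (SNU13 198 to NOP1 789), replication factor C (RFC1 21.4 to RFC5 90.6), the RNA exosome core (RRP45 34.2 to RRP46 152), the specific subunits of RNA polymerase II (RPB7 75.1 to RPB4 421) and the box H/ACA core (NOP10 70.9 to NHP2 545).

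**Figure D3:**
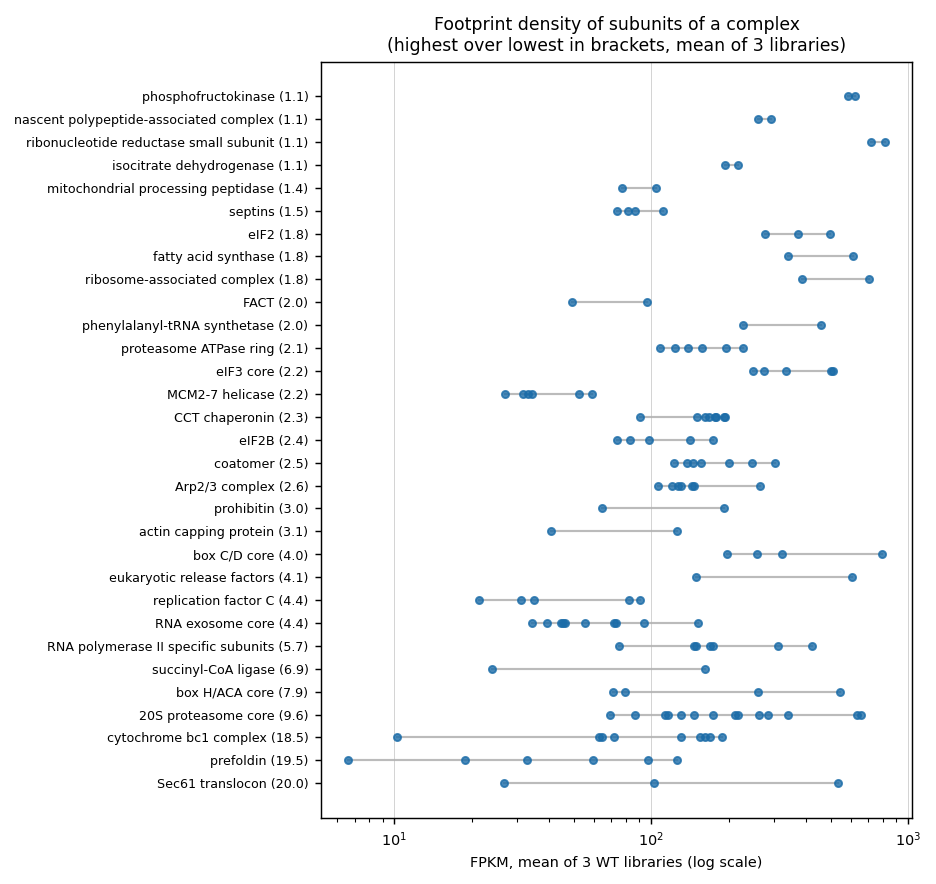
Footprint density of the subunits of 31 complexes, as mean FPKM of the 3 WT libraries on a log x axis, with 1 point for each subunit and the mean ratio of highest to lowest in brackets. Complexes are ordered from phosphofructokinase, with a ratio of 1.06, to the Sec61 translocon, with 20.02, and CCT7 stands to the left of the other CCT subunits.

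Genes of states that the culture was not in gave few footprints. The 7 galactose genes held 0.00317% of the expected counts, and most of it, 77.8%, was on GAL80, the repressor that is made without galactose. GAL10 was at 0 in 3 of 3 libraries, GAL1 had 1, 1 and 0 counts, and GAL2 and GAL7 had no more than 3. The 42 genes of meiosis and sporulation held 0.00339%, and 7 of them (IME2, SPO13, SPS18, DIT2, MEI5, REC114 and MER1) were at 0 in 3 of 3 libraries. The highest was SPO73 with 27, 26 and 29 counts. Over all 6952 entries, 907 were at 0 in 3 of 3 libraries. Zeros alone therefore do not set these lists, or those below, apart.

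The 29 genes that glucose represses held 0.048% ± 0.004, most of it on HXT7 (1034, 1084 and 942 counts) and HXK1 (380, 620 and 461). SUC2, the invertase, had 360, 446 and 409 counts. Of the enzymes of gluconeogenesis and the glyoxylate cycle, FBP1 had 1, 0 and 0 counts, PCK1 5.02, 6.24 and 1.04, ICL1 4, 5 and 7.7, and MLS1 1.01, 3.02 and 0, whereas MDH2, the cytosolic malate dehydrogenase, had 67.3, 70.1 and 79.1. FDH1 and CRC1 were at 0 in 3 of 3 libraries. Of the 26 stationary phase and stress genes, HSP104, a disaggregase, held 44.2% of the counts (1487, 1791 and 1459), while HSP12 had 48.1, 31.5 and 30.8 and SPG1 was at 0 in 3 of 3 libraries.

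Some phosphate genes, and OLE1 among the hypoxic genes, had many footprints. The phosphate level of the medium is given neither by the labels nor by the study's methods. The 12 genes that are known as induced by phosphate starvation held 0.68%, 0.65% and 0.74% of the counts. PHO84, the high-affinity phosphate transporter, had 15031, 16138 and 19347 counts and PHO12, an acid phosphatase, 6382, 5667 and 7239. PHO12 and PHO11 are near-identical copies, so the split between them is uncertain. PHO5, the main repressible acid phosphatase, had 1442, 1035 and 1384 counts and PHO89, the sodium-coupled transporter, only 191, 150 and 131. Of the 16 hypoxic genes, OLE1, the fatty acid desaturase, held 85.7% of the list's counts, while DAN4 was at 0 in 3 of 3 libraries and DAN1 had 0, 0 and 3.05 counts.

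Most of the genes with marker alleles were low among the listed genes of their pathways. In 4 of the 6 mutated genes (LEU2, HIS3, TRP1 and ADE2), FPKM was below that of every other listed gene of the pathway in 3 of 3 libraries. Of these, HIS3 (24, 13 and 15 counts), TRP1 (8, 7.15 and 13) and ADE2 (10.9, 19 and 10) rest on few counts. As background, ade2-1, trp1-1 and can1-100 are known as nonsense alleles, the double alleles of leu2 and his3 as frameshift alleles and ura3-1 as a missense allele. The part of the alleles in these levels was not tested.

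ADE2, an enzyme of adenine synthesis, had 1.26, 2.07 and 1.05 FPKM, while the other 10 listed genes of the pathway lay between 13.8 FPKM (ADE17) and 299 FPKM (ADE6). TRP1 had 2.13, 1.78 and 3.14 FPKM, and TRP2, TRP3, TRP4 and TRP5 lay between 80.2 and 237. HIS3 had 6.89, 3.5 and 3.91 FPKM, and its 6 partners lay between 20.5 (HIS5) and 482 (HIS1). LEU2 had 12.9, 16 and 11.9 FPKM, and LEU4, LEU1 and BAT1 had 323, 792 and 869. None of the 4 genes overlapped with a partner in any library.

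URA3 and CAN1 differed from those 4. URA3, the missense allele, had 39.1, 46.6 and 42.4 FPKM, above URA4 (33.3, 35.7 and 37.7) and below URA1, URA5 and URA2, which averaged 195, 272 and 305. CAN1, the arginine permease, had 1.15, 1.13 and 1.52 FPKM. It lay below the lysine permease LYP1 (117 FPKM) but above the related ALP1, which had 0.11, 0.42 and 0.83 FPKM. Among the 5077 entries, URA3 was above 62.7% and ADE2 above 0.945%.

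**Figure D4:**
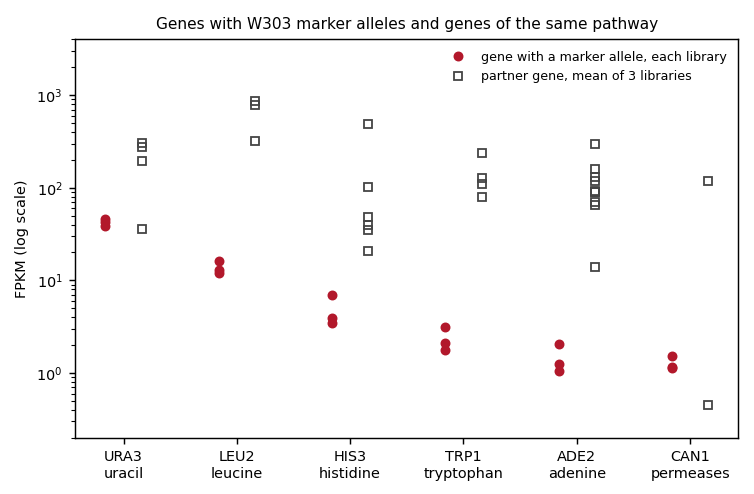
FPKM on a log y axis for the 6 genes with marker alleles (filled circles, 1 for each WT library) and for other genes of the same pathway (open squares, means of the 3 libraries). The circles of LEU2, HIS3, TRP1 and ADE2 lie below all of their squares, and those of URA3 and CAN1 each lie above 1 square.

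The libraries agreed closely for most genes. Across 5153 entries with a mean of at least 10 counts, the biological coefficient of variation (the spread beyond counting error, estimated with edgeR) was 10.9%, and its trend fell to a median of 9.90% for the 79 entries with at least 10000 counts, against 15.2% for entries with 10 to 100. Among 3649 entries with a mean of at least 100 counts, the highest and lowest CPM of the 3 libraries differed by a median of 1.19-fold, and 21 entries differed by more than 2-fold. Each pair of libraries differed by more than counting error, with a chi-square per degree of freedom between 5.97 and 14, so none was a repeat deposit of another.

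The entries that differed most between the libraries were led by copper and iron genes. FRE7, a putative metal reductase known to be induced when copper is low, had 63.3, 109 and 11.8 CPM in libraries 1, 2 and 3, a ratio of 9.25 and the largest of the 3649 entries. CTR1, the high-affinity copper transporter, had 534, 561 and 186. TIS11, an mRNA-binding protein that acts on transcripts of iron-using proteins when iron is short, had 460, 249 and 832. SIT1 and ENB1, which import siderophore-bound iron, and FRE4, a reductase, followed with ratios of 2.80, 2.51 and 2.58. The 10 largest ratios were completed by YBL083C, YBR121C-A, RPL41B and the unspliced form of RPS4A.

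Lists of iron and copper genes, written after these values were seen, went in opposite directions. Of 23 genes of iron uptake and iron sparing, 12 had a mean of at least 100 counts. All 12 were lowest in library 2, and 9 of them were highest in library 3 (FET3, FTR1, SIT1, ENB1, FRE4, FRE6, CCC2, HMX1 and TIS11). FET3, the oxidase of high-affinity iron uptake, had 334, 226 and 501 CPM, and FTR1, its permease partner, 167, 116 and 223. All 3 copper uptake genes with at least 100 counts (CTR1, FRE1 and FRE7) were highest in library 2 and lowest in library 3. FRE1, a reductase for iron as well as copper, was put on the copper list alone. With 174, 222 and 102 CPM it would have gone against the direction of the iron list. Over all 3649 entries, 29.0% were highest in library 2 and 25.9% in library 3, while 21.1% were lowest in library 2 and 45.5% in library 3. Summed, the iron list had 1518, 1037 and 2229 CPM and the copper list 773, 894 and 301. The cause of these differences was not tested, and they sit beside the statement that the libraries are technical replicates.

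**Figure D5:**
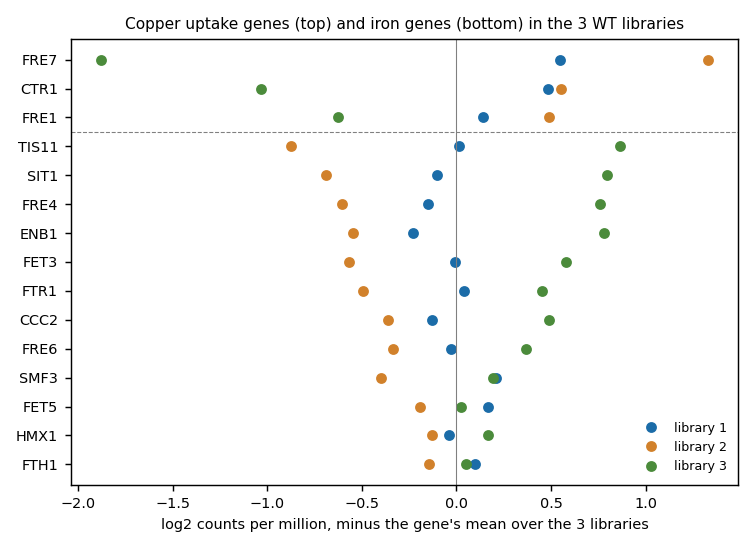
Each library's log2 CPM minus the gene's mean over the 3 WT libraries (x axis), for copper uptake genes (above the dashed line) and iron genes (below it) with a mean of at least 100 counts. Library 2 lies furthest left in all 12 iron genes and furthest right in all 3 copper genes, where library 3 lies furthest left.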

How the data were processed

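Per the labels and the study's methods, libraries of 80S footprints carried random nucleotides at both read ends. The authors trimmed reads with cutadapt 1.9, removed non-coding RNA reads, aligned the rest with Bowtie 1.0.0 (build R64), removed duplicates with UMI-tools and quantified transcripts with RSEM 1.3.0. The deposited expected counts are estimated counts in which a read matching several transcripts is divided among them. The deposited FPKM values are those counts divided by effective transcript length and library total. The authors' aligned read totals were not used: depth here is the sum of each column. In each table the 6 columns of mutant strains were not used.

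Shares, densities and ranges were computed per library with Python 3.11.15 and given as mean ± SD, without tests. Symbols came from RefSeq (R64), which matched 6259 of 6952 isoform entries, and all but 4 of 1875 list names matched. Coding length, used for intronless genes alone in place of protein length, is the RefSeq gene length. The coefficient of variation came from rounded expected counts (edgeR 4.0.16, TMM, intercept-only, R 4.3.3) and was tested on simulated data of 5153 entries, where a set value of 10% was recovered as 9.97%. Alternatives were the spliced entries alone, the gene table, FPKM, filters on low counts, DESeq2 1.42.0 size factors, and leaving out each library.

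Named genes were the 25 highest by share, the 10 highest by FPKM, the 2 leading members of each function list, the extremes of each complex, all paralog and allele members, the highest and the zero-count members of each state list, and the 10 entries with the largest ratio between libraries at a mean of at least 100 counts. Further members of state lists and complexes, such as MDH2 and PRE6, and genes on no list were named after their values were seen. The members and lists were chosen with earlier results of these data known, and the iron and copper lists, the length groups and the ribosomal protein families after the values were seen.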

Additional observations from a re-analysis of the deposited data

How the results depend on the processing

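The share of ribosomal proteins was 17.4% of expected counts and 30.3% of summed FPKM, and that of glycolysis and ethanol fermentation 13.7% and 12.5%, since FPKM divides by length. The number of entries that hold 50% of the library was 116 by FPKM and 148 with the gene table, with the spliced entries alone or with a filter on low counts. The share of the 20 most occupied entries was 21.4% by FPKM and moved by less than 1 SD with the gene table, the spliced entries alone or the filter. Leaving out 1 library gave 17.0% to 17.7% for ribosomal proteins, 13.3% to 14.1% for glycolysis and ethanol fermentation, 144 to 152.5 entries (the lowest without library 1, the highest without library 3) and 21.9% to 23.0% for the 20 entries. The biological coefficient of variation ranged from 8.70% without library 1 to 13.6% without library 2, with 9.77% without library 3, and the other filters and normalization gave 10.4% to 11.0%. All 30 other function lists and 29 paralog sets stayed within 1 SD with the gene table. The gene table sums the same estimates over the forms of a gene. Unspliced forms held 0.10% of the counts, so this agreement was largely fixed in advance and is no measure of stability. By summed FPKM, an alternative chosen after seeing the data, 29 of the 30 lists moved by more than 1 SD and 7 by more than 1.5 times. With 3 libraries a mean cannot move by 1 SD when 1 is left out, so the ranges without 1 library are no measure of stability. Of 26 complexes, 10 moved by more than 1 SD with counts per coding length, and the range of the Sec61 translocon alone moved by over 1.5 times, to 12.5-fold. No paired analysis was possible because no groups were compared. Copies of near-identical genes and very short coding regions are limited by how reads were divided and by the length used. Counts under 3 in a library carry no order.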

Other observations

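Some highly occupied transcripts were on none of the function lists. They were described after their values were seen. YHB1, the flavohemoglobin that removes nitric oxide, held 0.38%, 0.40% and 0.39% of the expected counts in libraries 1, 2 and 3. BMH1 and BMH2, the 14-3-3 proteins, held 0.28% ± 0.02 and 0.11% ± 0.01. ARB1, an ATPase of ribosome biogenesis, held 0.16% ± 0.02. MTC7 held 0.33% ± 0.01 at 5279, 5152 and 4906 FPKM, above the 3705, 3661 and 3438 FPKM of HYP2, its neighbour on the same strand of chromosome V. Only 29 bases separate the coding regions of HYP2 and MTC7, and the effective length of MTC7 (650 bases) exceeds its coding length of 420 bases. Whether reads of HYP2 were placed on MTC7 was not tested.

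The libraries also differed with coding length. Among intronless entries with a mean of at least 100 counts, the median log2 ratio of library 3 to library 1 was -0.25 in the 683 shortest (78 to 825 bases) and 0.09 in the 679 longest (2430 to 14733 bases). In the 3 groups of like size between them it was -0.10, -0.03 and -0.02. Histones, which are short, had 0.247%, 0.210% and 0.166% of the counts in libraries 1, 2 and 3, and HHF2, a histone H4 gene, had 1169, 940 and 671 FPKM.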
